A study of Homo sapiens with 18 samples.

Results

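In LNCaP cells, a human prostate cancer line of luminal type derived from a lymph node metastasis, 606 ATAC-seq sites at promoters carried a peak in vehicle-treated cells and none in cells treated with trichostatin A (TSA). They are sites of the authors' merged table of 51909 that share at least 1 base with a peak of the vehicle list and no base with a peak of the TSA list, and whose centre lies within 1 kb of a start site of the basic GENCODE transcripts on hg19. They make up 1.17% of all sites, 4.34% of the 13955 promoter sites and 5.42% of the 11187 sites with a vehicle peak only. The other promoter sites are 11541 with peaks in both conditions, named shared here, and 1808 with a TSA peak only. A further 10581 sites with a vehicle peak only lie farther than 1 kb from any start and are named distal.

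ATAC-seq was done on 3 cultures treated with 100 ng/ml TSA for 24 h and on 3 cultures given vehicle for as long. The series also holds mRNA-seq of 3 TSA-treated, 3 vehicle-treated and 3 untreated cultures, and WHG-STARR-seq with 1 input library and 2 output replicates. All cultures are of this cell line, and the STARR input library is plasmid DNA. Each peak list holds 1 score per peak for a whole condition, and 1 average over libraries per site or gene was used here. These values do not give the depth per library, the spread between replicates or the level within a single condition. No difference described below was therefore tested against replicate error, and the values are descriptions of these files. The cell type label was checked in the mRNA averages. All 13 luminal markers were present, from 4.41 log2 CPM (KLK2) to 11.17 (FOLH1), with KLK3 at 8.03. Of the 9 basal, stromal and blood markers, KRT5 (6.23), VIM (5.88) and CD68 (3.17) were present as well, ACTA2 stood at 1.25, and KRT14, TP63, DES, PTPRC and PECAM1 were below 0, that is, below 1 CPM.

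ATAC-seq uses a transposase that inserts adapters into DNA not wrapped in nucleosomes, so that active promoters and enhancers appear as peaks of insertions. Most promoters of widely used genes lie in CpG islands, stretches rich in GC and in the CpG dinucleotide, while many tissue-restricted promoters are poor in CpG and some carry a TATA box. TSA blocks histone deacetylases, the enzymes that take acetyl groups off histone tails, and acetylated chromatin is in general looser. Promoter sites with a peak in vehicle alone were fewer here than those with a peak under TSA alone, 606 against 1808. Over all sites the counts were 11187 and 13434. The lists are of unlike length, with 38813 vehicle and 40995 TSA peaks, and the cause of the difference was not tested.

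The sequences of 3 sites are given first. They were picked among the sites named in this report that hold a motif match, so they do not represent the 606 as a whole. The first and second are at noncoding starts and have vehicle scores among the 10 highest, and the last is a protein-coding promoter with a STARR enhancer. Each run is 200 bases of the plus strand of GRCh37 (hg19) within the site and overlaps no annotated exon. Capitals mark matches, on either strand, to the TATA box, AP-1 or GC box string, each spelled out below with its share of sites. Those shares count matches around the centre of each site only. The run at AKAP3 lies outside that central stretch, and its site is not among those counted below with a GC box.
ENSG00000279002, of the annotation class TEC, chr5:8660736-8660935: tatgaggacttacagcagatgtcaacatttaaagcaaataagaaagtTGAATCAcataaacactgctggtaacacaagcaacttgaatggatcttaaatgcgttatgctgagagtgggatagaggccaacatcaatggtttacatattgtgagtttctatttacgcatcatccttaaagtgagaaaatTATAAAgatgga
ENSG00000277099, an unprocessed pseudogene, chr1:242225980-242226179: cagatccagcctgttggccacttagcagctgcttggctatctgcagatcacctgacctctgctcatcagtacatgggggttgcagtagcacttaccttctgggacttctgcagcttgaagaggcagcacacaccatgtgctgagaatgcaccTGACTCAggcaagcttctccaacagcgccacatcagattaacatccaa
AKAP3, protein-coding, chr12:4758474-4758673: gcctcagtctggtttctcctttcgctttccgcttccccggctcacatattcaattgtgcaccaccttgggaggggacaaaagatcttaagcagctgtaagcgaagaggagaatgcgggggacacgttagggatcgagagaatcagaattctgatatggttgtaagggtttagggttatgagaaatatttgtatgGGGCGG

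The run at ENSG00000279002 has a GC content of 35% with 2 CpG dinucleotides, and the run at ENSG00000277099 has 52.5% with 1. The run at AKAP3 has 48.5%, with 8 CpG dinucleotides.

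The 606 sites were weak peaks of the vehicle list. Each of them consists of exactly 1 vehicle peak, and the score given by Fseq, a smoothed density of insertions, had a median of 0.0443 against a lowest score of 0.0390 in the whole list of 38813 peaks. Shared promoter sites had a median of 0.0809, and distal sites with a vehicle peak only had one of 0.0466. Promoter sites with a TSA peak only were weak in the TSA list too, with a median TSA score of 0.0459 against 0.0959 for shared promoter sites. Low scores are therefore not particular to the 606, and the score is not independent of the rule that picked them. Of the 606 peaks, 370 (61.1%) were in the lowest 25% of the vehicle list by score and 9 (1.49%) in its highest 25%, against 9.20% and 46.0% of shared promoter sites. The median rank was 31370 and the best rank 4131. The TSA list is longer, with 40995 peaks and a lowest score of 0.0377, so a site without a TSA peak is one with no peak above that score and may still be accessible. The nearest TSA peak was at a median of 18557 bases, within 500 bases at 23 sites and within 1 kb at 41 sites (6.77%).

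**Figure D1:**
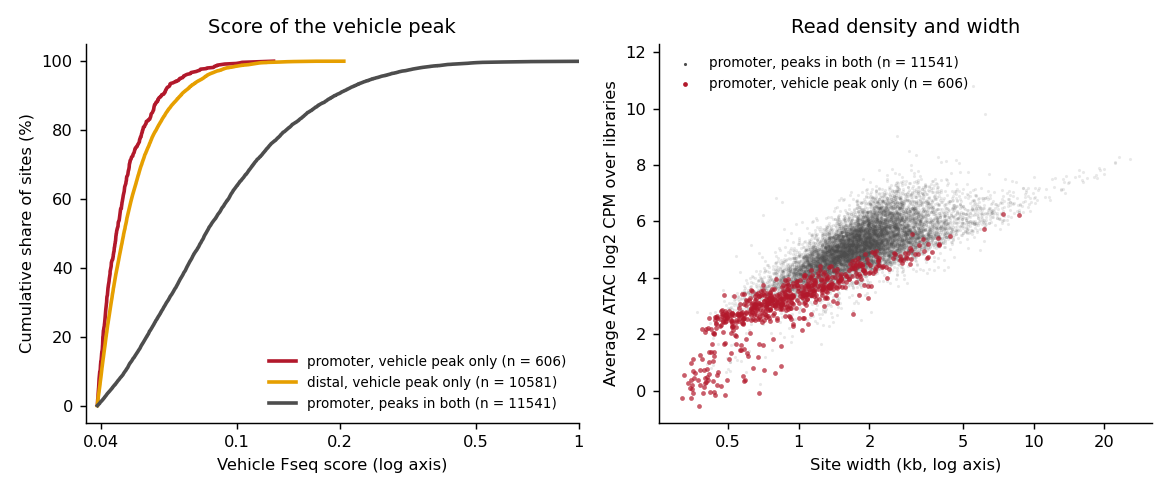
Left, cumulative share of sites in percent by the Fseq score of their vehicle peak on a log axis, for promoter sites with a vehicle peak only, distal sites with a vehicle peak only and shared promoter sites. Right, average ATAC log2 CPM over libraries against site width in kb on a log axis, 1 point per promoter site. The 606 sites rise steeply from the lowest score, with a median of 0.0443 against 0.0809 for shared promoter sites, and sit low among the shared sites of like width.

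Width and read density were also lower than at shared promoter sites. These measures are not independent of the rule that picked the 606 sites. A shared site holds peaks of both conditions, which can make it wider. The read average includes TSA libraries, and the 606 sites have no peak in the TSA list. How much of the differences this accounts for was not tested. The 606 sites had a median width of 852 bases, against 1841 for shared promoter sites, 1116 for promoter sites with a TSA peak only and 681 for distal sites. Their average over the ATAC libraries of the authors' table had a median of 3.25 log2 CPM, against 5.14 for shared, 3.68 for TSA-only and 2.75 for distal sites. Since a wide site collects more reads, the average was also taken per kb of site. On that scale the medians were 3.38 log2 CPM per kb for the 606 sites, 4.21 for shared, 3.42 for TSA-only and 3.26 for distal sites. The interval between the quartiles of the 606 sites ran from 3.13 to 3.61 per kb and that of shared promoter sites from 3.83 to 4.62, so these ranges did not meet. The average covers libraries of both conditions, and the part of each condition in it was not worked out here.

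The highest vehicle scores belonged mostly to starts of noncoding transcripts in AT-rich DNA. The top site, at chr1:242309484-242311219, lies 261 bases upstream of the lncRNA ENSG00000272865, with a score of 0.128, 4.47 log2 CPM and a GC content of 37% in its central 300 bases. The next sites were at ENSG00000279002 on chromosome 5 (0.115, GC 37.7%) and at the pseudogene ENSG00000277099 on chromosome 1 (0.103, GC 53%). Among the 10 highest scores, 2 were at protein-coding starts. FBXO38, which encodes an F-box subunit of a ubiquitin ligase, had a site at chr5:147773958-147775005 with a score of 0.0874, 4.09 log2 CPM and a GC content of 38%. PPP2R3A, which encodes a regulatory subunit of protein phosphatase 2A, had a site at chr3:135741471-135742850 with a score of 0.0859, 4.04 log2 CPM and a GC content of 35%. The remaining 5 were a Y_RNA start on chromosome 8 (0.102), CRIP1P1 (0.0994), ENSG00000258888 (0.0920), ENSG00000279056 (0.0895) and ENSG00000236190 (0.0873). The site at ENSG00000279056 lay 28 bases from a TSA peak, the shortest distance among the 606, while the other 9 lay 9247 to 51175 bases from one.

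The highest read averages were found elsewhere, at wide GC-rich sites with low scores. Of the 10 sites with the highest averages, 9 are described. The site at AMH, the gene of anti-Müllerian hormone, was the widest of all with 8699 bases, and had 6.23 log2 CPM and a score of 0.0425. The others were at ENSG00000276101, SCGB1C1, NKX6-2, NOTUM, NFIC, FSTL3, ENSG00000235138 and DOC2B, with 5.16 to 5.72 log2 CPM and widths of 3044 to 6165 bases. Per kb these 9 sites ranged from 3.09 log2 CPM at ENSG00000276101 to 3.94 at SCGB1C1, within the range of the other sites. None of them was among the 10 highest scores. NKX6-2, which encodes a homeobox factor of the nervous system, SCGB1C1 and DOC2B stood at the lowest value of the mRNA table, -2.62 log2 CPM, whereas NFIC, which encodes a nuclear factor I protein, stood at 5.85.

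A small group of sites had few reads per kb for their score. With a limit of 2.5 log2 CPM per kb, chosen after the values were seen, 66 sites (10.9%) were below it, against 0.529% of shared promoter sites, 9.07% of TSA-only promoter sites and 21.6% of distal sites. They were narrow, with a median width of 444 bases. Of the 66, 25 (37.9%) were nearest to a pseudogene, against 60 (11.1%) of the other 540, and 17 (25.8%) lay on the X chromosome, against 18 (3.33%) of the other 540. These shares were also higher below the limit in the other groups. On the X chromosome lay 36.1% of shared promoter sites below it, against 3.62% of the rest. For TSA-only promoter sites the shares were 25.6% and 1.28%, and for distal sites 32.7% and 2.41%. Pseudogene shares in the same order were 21.3% and 2.01%, 28.05% and 6.45%, and 31.8% and 21.5%. Such traits are therefore not particular to the 66 sites. CRIP1P1 and ENSG00000258888, which are among the 10 highest scores, belong to the 66 with 2.38 and 2.20 log2 CPM per kb. The authors kept uniquely mapped reads, and pseudogenes have close copies elsewhere in the genome, so read averages there are uncertain.

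By sequence the 606 sites fell between shared promoters and distal sites. In the central 300 bases the median GC content was 51.3% with quartiles of 40.3% and 63.9%, against 67.7% for shared, 61.7% for TSA-only and 40% for distal sites. The ratio of observed to expected CpG had a median of 0.353, against 0.809, 0.647 and 0.189. With CpG-rich defined as a GC content over 50% and a ratio over 0.6, as in common definitions of CpG islands, 180 sites (29.7%) were CpG-rich, against 78.1% of shared, 51.9% of TSA-only and 4.36% of distal sites. Their lower share was also seen within kinds of start. At protein-coding starts 139 of 291 sites (47.8%) were CpG-rich, against 83.2% of shared and 68.5% of TSA-only sites, and at lncRNA starts 31 of 166 (18.7%), against 58.7% and 31.0%. Among sites in the lowest 25% of the vehicle list, 124 of 370 (33.5%) were CpG-rich, against 720 of 1062 shared promoter sites (67.8%).

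**Figure D2:**
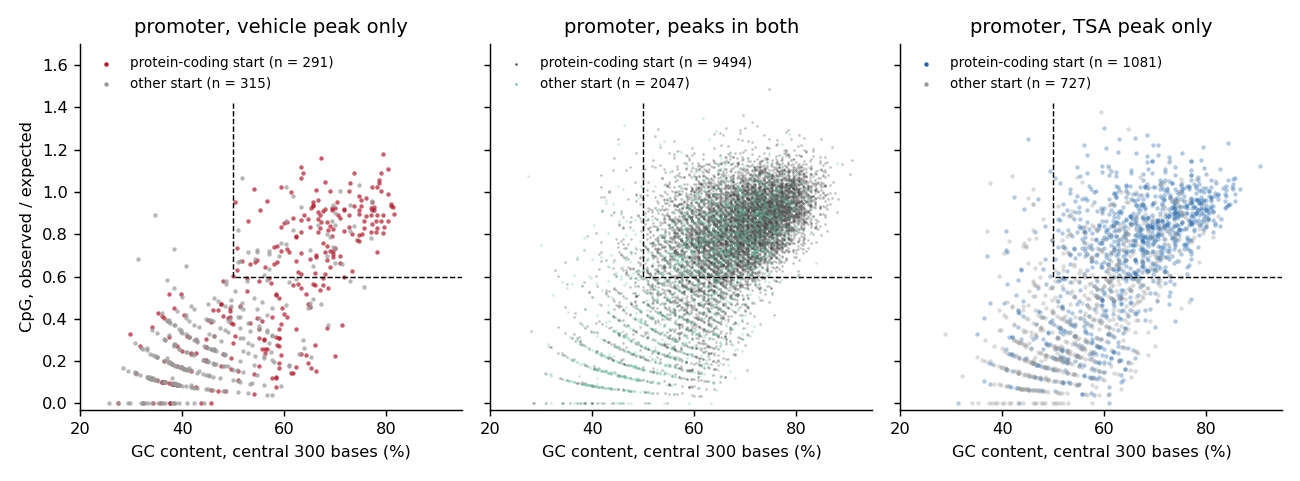
Ratio of observed to expected CpG against GC content in percent in the central 300 bases of promoter sites, 1 point per site, for sites with a vehicle peak only, with peaks in both conditions and with a TSA peak only. Dashed lines mark the limits of CpG-rich sites, and colour separates protein-coding from other starts. Of the sites with a vehicle peak only, 29.7% lie inside the limits, against 78.1% of shared sites.

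CpG-rich and CpG-poor sites differed from each other in most other measures. The 180 CpG-rich sites had a median width of 1125 bases, 3.54 log2 CPM per kb and a centre 142 bases from the start, and 139 of them (77.2%) were at protein-coding genes. The 426 CpG-poor sites had a median width of 786 bases, 3.33 log2 CPM per kb and a centre 449 bases from the start, and 152 (35.7%) were at protein-coding genes. The median vehicle score was similar, 0.0435 and 0.0448. In the highest 25% of the 606 by score 18.4% were CpG-rich, and in the lowest 25% the share was 34.2%.

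The start sites concerned were often noncoding. The nearest gene was protein-coding for 291 sites (48.0%), a lncRNA for 166 (27.4%) and a pseudogene for 85 (14.0%), with 21 miRNA, 18 misc_RNA, 8 snRNA and 4 snoRNA starts among the rest. Of shared promoter sites 82.3% were at protein-coding genes, 14% at lncRNAs and 2.11% at pseudogenes, and of TSA-only sites 59.8%, 27.3% and 8.41%. As background, protein-coding genes are 31.5% of the 64120 annotated genes with a basic start, lncRNAs 29.2% and pseudogenes 23.4%. The centre lay within 200 bases of the start in 238 sites (39.3%), against 62.8% of shared and 55.7% of TSA-only sites. It was upstream of the start in 270 (44.6%). By annotation the centre was in coding sequence at 37 sites, in another exon at 174, in an intron at 265 (43.7%) and between genes at 130 (21.5%). In shared promoter sites 31.9% of centres were in introns and 13.1% between genes.

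The distance limit of 1 kb cut through a gradual change. Vehicle-only sites within 200 bases of a start had a median GC content of 59.2%, those from 200 to 500 bases 53.5% (n = 156), those from 500 to 1000 bases 44.2% (n = 212), and those from 1000 to 1500 bases, outside the limit, 42% (n = 182). The last sites inside, at GDAP1L1, MEI4 and ENSG00000272172, all had their centre 1000 bases from the start and scores of 0.0401, 0.0760 and 0.0452. The first outside, at RRM1-AS1, ENSG00000272335 and RN7SL335P, lay at 1003, 1010 and 1018 bases with scores of 0.0620, 0.0426 and 0.0435.

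The mRNA table gave an average for 320 of the 668 genes with one of the 606 sites within 1 kb of a start. Their median was 3.25 log2 CPM and 226 (70.6%) stood at 1 CPM or more, close to the 67.6% of all 20778 genes of the table with an annotated start, whose median was 3.17. The 10630 genes whose promoter sites were all shared had a median of 4.93 with 92.2% at 1 CPM or more, and the 1066 genes with TSA-only promoter sites alone had 2.86 with 72.7%. The 8601 genes with no promoter site had a median of -1.44 with 36.2%. Of the 320 genes, 237 had vehicle-only promoter sites alone, with a median of 2.54 log2 CPM and quartiles of -0.82 and 4.96. Of these 237, 59 stood at 5 log2 CPM or more and 75 under 1 CPM. Another 75 genes had a shared promoter site as well, with a median of 4.63, and the other 8 also had a TSA-only site.

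**Figure D3:**
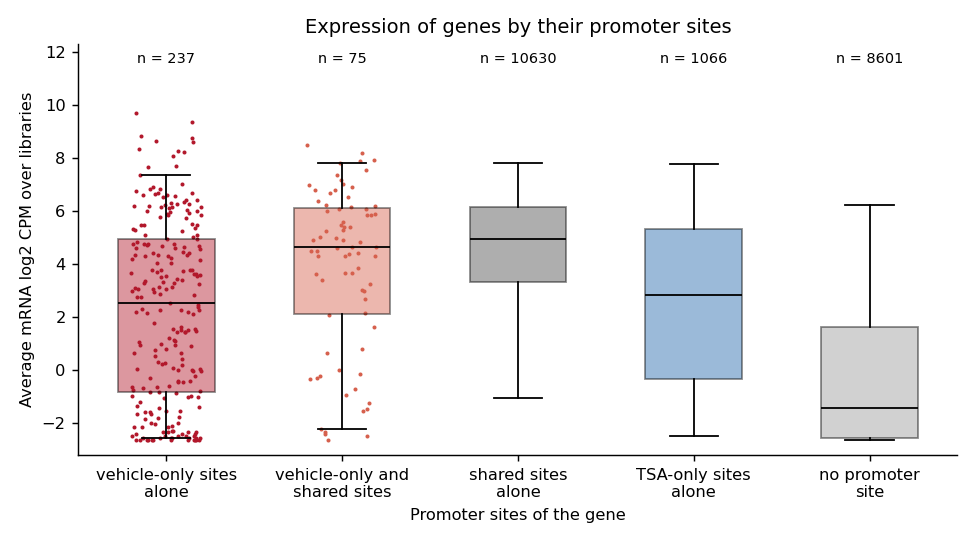
Average mRNA log2 CPM over libraries of genes grouped by their promoter sites, with boxes from the lower to the upper quartile, a line at the median, whiskers at the 5th and 95th percentiles and, for the groups with vehicle-only sites, 1 point per gene. Genes with vehicle-only sites alone (n = 237) spread over the whole scale with a median of 2.54, against 4.93 for genes with shared sites alone.

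Several highly expressed genes had no shared or TSA-only promoter site. UGT2B15, which encodes an enzyme that inactivates androgens by glucuronidation, was the highest of the 320 genes with 9.71 log2 CPM. Its site at chr4:69536075-69536760, centred 48 bases upstream of the start, had a score of 0.0459, 2.54 log2 CPM and a GC content of 34%, and the nearest TSA peak was 193312 bases away. UGT2B genes are close paralogs, so the reads of this gene are uncertain. RPS3, which encodes a protein of the small ribosomal subunit, had 8.84 log2 CPM and a site at chr11:75110315-75111021 with a score of 0.0467, 3.73 log2 CPM and a GC content of 67.7%. EIF3L, which encodes a subunit of translation initiation factor 3, had 8.36 and a site at chr22:38244698-38246161 with a score of 0.0413. ATP5MC3, which encodes a membrane subunit of ATP synthase and is listed in the table under an older symbol, had 8.28 and a site at chr2:176046076-176046671 with a score of 0.0405. The sites of EIF3L and ATP5MC3 were centred 4 and 17 bases downstream of the start. PDIA6, which encodes a disulfide isomerase of the endoplasmic reticulum, had 7.56 log2 CPM and a site centred 3 bases upstream of a start with a score of 0.0497, but it also had a shared site 19671 bases away. These 5 are the sites nearest to a start among those of the 20 most expressed of these genes. At the same level, and picked after their values were seen, the genes of peroxiredoxin PRDX2 (9.37) and cystathionine beta-synthase CBS (8.63) had vehicle-only sites alone, with scores of 0.0468 and 0.0407.

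In the 75 genes with both kinds of site, the shared site usually had the higher vehicle score. It was the higher in 69 of 75 genes, with a median of 0.0950 against 0.0443 for the vehicle-only site. Over all promoter sites the medians were 0.0809 for shared and 0.0443 for vehicle-only sites. The order within genes follows that of the groups and was not tested apart from it. The centres within a gene were a median of 19671 bases apart. Of the 75 vehicle-only sites 23 (30.7%) were CpG-rich, against 139 of 237 (58.6%) in genes with vehicle-only sites alone. The following genes were picked after their values were seen. MAGED1, a MAGE family gene, had a score of 0.0410 at its vehicle-only site and 0.426 at a shared site centred 90496 bases away. SMARCA2, which encodes the ATPase BRM of the SWI/SNF remodelling complex, had 0.0392 and 0.324, at sites with centres 141835 bases apart. In the opposite order, LGALS8, which encodes galectin-8, had 0.0852 at the vehicle-only site and 0.0568 at the shared site centred 6510 bases away. The vehicle-only site was also the higher at NFIC, UBA2, NLGN4X, EYA1 and RTL9. ERBB2, which encodes a receptor tyrosine kinase and stood at 8.05 log2 CPM, had a vehicle-only site at chr17:37855719-37858286 with a score of 0.0536 and a TSA-only site at another start, and no shared promoter site.

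**Figure D4:**
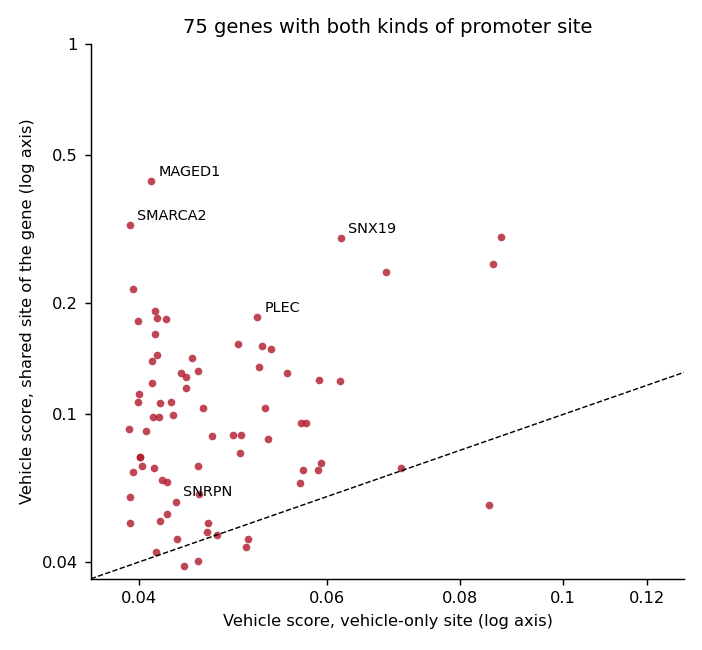
Vehicle Fseq score of the shared promoter site against that of the vehicle-only promoter site for 75 genes with both, on log axes, with a dashed line where the scores are equal. In 69 genes the shared site lies above the line.

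WHG-STARR-seq clones random pieces of the genome into a plasmid downstream of a minimal promoter, where a piece with enhancer activity raises its own transcription, away from its native chromatin. The authors divided the enhancers into open ones, which overlap a DNase I site of LNCaP cells, and closed ones, which do not. Of the 606 sites, 73 (12.0%) shared a base with one of the 94527 enhancers, 51 (8.42%) with an open and 22 (3.63%) with a closed one. Shared promoter sites did so in 30.6% of cases, TSA-only promoter sites in 19.8% and distal sites in 4.53%. A closed enhancer was at 2.60% of shared, 5.14% of TSA-only and 3.08% of distal sites, counting those that also overlap an open one. Because the 606 sites are narrower, the central 300 bases were also compared, and 53 sites (8.75%) held part of an enhancer there, against 21.5%, 15.6% and 2.81%. At protein-coding starts 50 of 291 sites (17.2%) overlapped an enhancer, against 31.7% of shared sites. Among CpG-rich sites the share was 35 of 180 (19.4%) and among CpG-poor sites 38 of 426 (8.92%), against 31.6% and 27.1% of shared sites.

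The fold enrichment of output over input at the 73 sites had a median of 3.38 and ran from 1.98 to 12.2, and for shared promoter sites the median was 3.19. PSMB6, which encodes a catalytic subunit of the proteasome, had the highest with 12.2 at an open enhancer from 4698976 to 4699874 on chromosome 17, which shares 717 bases with the site at chr17:4699158-4700416. The site at chr19:49122090-49123074, between the starts of the sphingosine kinase gene SPHK2 and the ribosomal protein gene RPL18, had 11.8. FRMPD2, which encodes a protein with FERM and PDZ domains, had 10.9 (chr10:49459122-49460546). IFIT2, an interferon-induced antiviral gene, had 10.7 (chr10:91061547-91062215). AKAP3, which encodes an anchor of protein kinase A in sperm, had 7.43 at a site that also holds the start of NDUFA9 (chr12:4757668-4758711). The −log10 q-values of these 5 enhancers ran from 64.1 to 219, and all 5 were open, with vehicle scores of only 0.0393 to 0.0488. The 51 sites with an open enhancer were protein-coding in 42 cases and CpG-rich in 33, with a median gene average of 4.59 log2 CPM (n = 40). The 22 with a closed enhancer were protein-coding in 8 cases and CpG-rich in 2, with a median of -0.50 (n = 8). Among these 22, the lncRNA LINC02662 had the highest fold, 6.88, and the pseudogene ENSG00000277099 printed above had 4.38.

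Gene groups were described from 25 lists by the share of genes with one of the 606 sites at a start. That share is 1.54% over all 20778 genes, of which 12177 had any promoter site and 320 one of the 606. It counts 8601 genes with no promoter site, which cannot have one of the 606. Among genes with a promoter site the count is 320 of 12177, a higher share. All 31 proteasome genes and 72 of the 84 ribosomal protein genes had a promoter site, so the share over all genes is a low base for these lists. No gene of the lists of prostate luminal markers, basal, stromal and blood markers, androgen-responsive genes, cell cycle inhibitors, DNA replication, mitosis, histone acetyltransferases and bromodomain readers, DNA repair, cholesterol synthesis, splicing factors, the BCL2 family, epithelial junctions, neuronal genes or replication-dependent histones had one. Those lists hold from 8 to 65 genes each, so few or no sites would be expected in them at the share over all genes. The proteasome list had 3 of 31 genes (9.68%), PSMB4, PSMB6 and PSMC2. Their gene averages were 8.63, 6.63 and 6.66 log2 CPM and their vehicle scores 0.0518, 0.0472 and 0.0398. None of the 3 had a shared or TSA-only promoter site, and 2 of them overlapped an open enhancer. The ribosomal protein list had 4 of 84 (4.76%), RPS3, RPL31, RPS19 and RPL18, with gene averages from 7.68 to 8.84 and vehicle scores from 0.0415 to 0.0530. Each of the 4 sites overlapped an open enhancer, with folds of 5.12, 3.75, 3.31 and 11.8. Ribosomal protein genes have many processed copies in the genome, so their read averages are uncertain.

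The complex I list had 2 of 37 (5.41%), NDUFA1 and NDUFA9, with open enhancers of 5.86-fold and 7.43-fold. The mitochondrial ribosomal list had 1 of 78 (1.28%), MRPS7, with a fold of 3.75. The interferon-stimulated list had 2 of 26 (7.69%). IFIT2 is described above, and OAS1, which encodes an enzyme that senses double-stranded RNA, had a score of 0.0613, a closed enhancer of 2.76-fold and a gene average of 1.57 log2 CPM. Of the histone deacetylase list 1 of 18 had a site. It was SIRT6, a sirtuin, whose class of deacetylases is not inhibited by TSA, with a score of 0.0461 and an open enhancer of 3.20-fold. The unfolded protein list had 1 of 21 (PDIA6), the ubiquitin-conjugating list 1 of 33 (UBE2V1) and the Rab list 1 of 59 (RAB30). Zinc finger genes named ZNF had 7 of 527 (1.33%), beside 1.54% over all genes. Among genes with any promoter site this is 7 of 427, beside 320 of 12177. These were ZNF112, ZNF35, ZNF544, ZNF589, ZNF649, ZNF662 and ZNF710, with vehicle scores from 0.0408 to 0.0676 and gene averages from -2.10 at ZNF662 to 5.90 at ZNF544. Solute carrier genes had 2 of 341 (0.587%), SLC26A4 and SLC43A3, with gene averages of -1.34 and -2.55. Most of these groups rest on 4 sites or fewer.

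The 15 motifs described were searched as short letter strings on both strands of the central 300 bases, so each site offers the same length, and a match is a description of the letters and not a bound site. The GC box of SP and KLF factors, GGGCGG, was in 158 sites (26.1%), against 64.8% of shared, 43.9% of TSA-only and 6.30% of distal sites. The ETS string CCGGAAG was in 4.29%, against 11.3% of shared and 8.13% of TSA-only sites. In the same order, the NRF1 string GCGCATGC was in 0.660%, 3.00% and 2.765%, and the YY1 string AAGATGGC in 0.990%, 3.74% and 2.99%. The CGCG element TCTCGCGA was in none of the 606, in 1.10% of shared and in 0.885% of TSA-only sites. The CTCF core AGGGGGC was in 8.91%, against 17.9% and 13.8%. The CREB and ATF element TGACGTCA was in 2 sites (0.33%), against 1.38% and 1.77%. The E2F string GCGGGAAA was in 3 (0.495%), against 1.89% and 1.22%.

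AT-rich strings went the other way. The TATA box TATAAA was in 111 sites (18.3%), against 3.21% of shared, 6.31% of TSA-only and 33.5% of distal sites. The forkhead string TGTTTAC, bound by FOXA1, a factor that opens chromatin in luminal prostate cells, was in 54 (8.91%), against 2.11%, 4.09% and 15.9%. The AP-1 string TGANTCA was in 49 (8.09%), against 3.16% of shared and 8.30% of TSA-only sites. Over all sites of each promoter group, the CCAAT box of NFY was in 27.4% of the 606, 25.3% of shared and 26.4% of TSA-only sites. Among CpG-rich sites it was in 15% of the 606 and 23.4% of shared sites, and among CpG-poor sites in 32.6% and 31.9%. The ZNF143 string ACTACAA (2.15% and 1.64%), the GATA string AGATAAG (1.98% and 1.03%) and the E-box CACGTG (4.79% and 6.26%) were given in the 606 and in shared sites in that order.

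These shares moved with base composition. Within CpG-rich sites the GC box was in 65% of the 180 and in 74.9% of shared sites, TATAAA in 2.22% and 1.61%, and the forkhead string in 1.67% and 1.49%. Within CpG-poor sites the GC box was in 9.62% of the 426 and in 28.8% of shared sites. TATAAA was in 25.1% and 8.95% of CpG-poor sites, the forkhead string in 12.0% and 4.31%, and AP-1 in 10.6% and 6.57%. CpG-poor sites are not all alike in GC content, and its part in these shares was not tested.

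**Figure D5:**
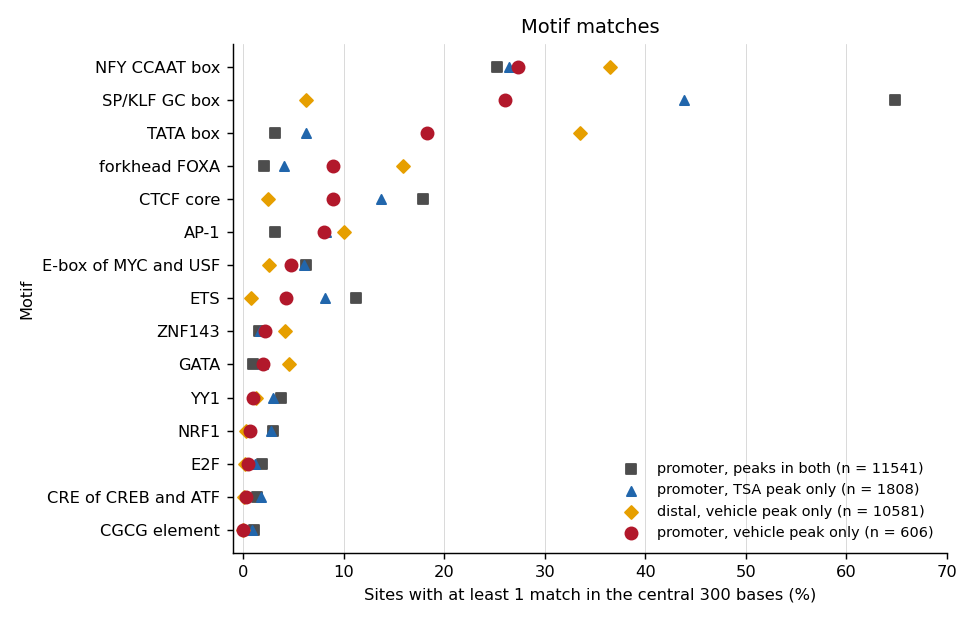
Share of sites in percent with at least 1 match to each of 15 motifs in the central 300 bases, for 3 groups of promoter sites and for distal sites with a vehicle peak only. For the GC box and the TATA box the promoter sites with a vehicle peak only lie between shared promoter sites and distal sites.

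The 606 sites were spread over all chromosomes. Their share of promoter sites was lowest on chromosome 6 (2.28%) and highest on Y (3 of 30 sites, 10%), with 6.69% on chromosome 8, 6.53% on X and 5.98% on chromosome 11. With members of a run at most 100 kb apart, 572 sites stood alone, 12 pairs were found, and 3 runs held 3 or more. The longest run had 4 sites over 134 kb at chr1:242219102-242352915, all at noncoding starts (TUBB8P6, ENSG00000277099, ENSG00000272865 and RN7SKP12), of which ENSG00000272865 and ENSG00000277099 are among the 3 highest scores of all. A run of 3 on chromosome 15, chr15:25069289-25102565, had 2 sites at starts of SNRPN, a gene expressed from the paternal copy, with scores of 0.0433 and 0.0407, and 1 at ENSG00000280118 with 0.0539. The third, at chr19:45250465-45312880, held sites upstream of BCL3 (0.0404), at CBLC (0.0538) and upstream of BCAM (0.0579).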

How the data were processed

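Chromatin accessibility was measured by ATAC-seq, expression by mRNA-seq and enhancer activity by WHG-STARR-seq in LNCaP cells. The authors aligned ATAC-seq reads to hg19 with Bowtie and Bowtie2, kept uniquely mapped reads, removed duplicates with Picard, shifted read starts to the centre of the transposase and found peaks with Fseq. The deposited peak lists give an Fseq score per peak and condition. The authors merged the peaks and counted reads, and their deposited tables give a log2 CPM averaged over libraries per site and per gene. The sources used here do not say which libraries entered the gene average. Both tables also hold fold changes, likelihood ratios, p-values and q-values of the authors' comparison of TSA with vehicle, which were not used. The deposited enhancer lists give the ratio (fold) of output over input and a −log10 q-value from pooled output replicates.

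Overlaps need at least 1 shared base. Start sites are those of basic transcripts of GENCODE 44 on GRCh37, and the nearest gene was taken, with genes of the mRNA table first at ties. A start was found for 20778 of its 22336 genes, 2258 of them by an older symbol. Sequence measures cover 300 bases around the centre. Python 3.11.15, pandas 2.3.3, pysam 0.24.0 and samtools 1.23.1 were used, and the overlap, distance and motif code was tested on simulated data. The genes named are the 10 sites with the highest vehicle score, the 10 with the highest average, the 5 with the highest STARR fold, the 5 nearest a start among those of the 20 most expressed genes with a site, and the genes found in each list. Members, lists and motifs were chosen with earlier results of these data known. No test was made, since no values per library were used. Some genes, sequences and a motif are not reported here.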

Additional observations from a re-analysis of the deposited data

How the results depend on the processing

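Of 52 recomputed values for 6 results, 42 stayed close to the value reported. Some of the 42 carry no information on stability. A limit of at least 50 shared bases gave the same 606 sites, so all 6 results were unchanged. Each site consists of 1 vehicle peak, so the sum of its peak scores is the same value as its score. Close means within 1.5-fold for counts, scores and CPM, within 5 points for GC content, and within the 95% exact binomial interval of 9.56 to 14.9 for the percentage with a STARR enhancer, which covers counting error only. The number of sites was 394 with starts within 500 bases, 980 within 2000 bases, 304 with protein-coding starts only and 236 with vehicle peaks in the upper 75% of their list by score. The percentage with a STARR enhancer was 15.2 with starts within 500 bases and 16.8 with protein-coding starts only. The median GC content was 56.7% within 500 bases, 60.8% with protein-coding starts and 46% in the upper 75% by score. The median average of the genes was 4.60 log2 CPM when genes under 1 CPM were left out, which removes low values by construction. The cause of the other changes was not tested. With the TSA list cut to the length of the vehicle list there were 674 sites, and with no TSA peak within 500 bases 583. The median vehicle score stayed between 0.0439 and 0.0532 and the median site average between 3.08 and 3.61 log2 CPM. No paired analysis was possible because no values per library were used, and for the same reason no replicate could be left out. Peaks near the lowest score of either list can enter or leave a list with a small change of score, and 61.1% of the sites were in the lowest 25% of the vehicle list.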
